A study of Homo sapiens with 6 samples.

Results

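Glycolysis and hypoxia genes were examined as a group of 33 members in K562, an established human line of chronic myeloid leukaemia cells in which BCR and ABL1 are fused. The members were a fixed list of glucose transporters, glycolytic and lactate enzymes, pyruvate carrier subunits and genes of the oxygen response, found by symbol. Of the 33, 32 were among the 19498 genes of the table. All 32 were among the 16658 genes with a value of at least 10 in at least 3 libraries, which were tested. Values of CA9 were not analysed here, and only its promoter window was searched. Polyadenylated RNA was measured in 6 libraries, 3 biological replicates of K562 cells labelled WT and 3 of K562 cells labelled ACK KO, where ACK is the Cdc42-binding tyrosine kinase encoded by TNK2. Cells of both labels were grown in the same medium with serum and glutamine and were collected beside samples for CUT&RUN, a chromatin binding assay. How the KO was made, and whether it is 1 clone or several, is not given, nor whether replicates were separate cultures. A difference between genotypes and one between lines therefore cannot be told apart, and each p-value reflects no more than the spread among these libraries. The values are normalised read counts, and the number of reads behind them is unknown, so errors are the spread between libraries. Where 3 values follow a label, they are replicates 1, 2 and 3 in order.

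Glycolysis splits glucose into pyruvate in the cytosol. GLUT transporters bring glucose in, hexokinases trap it as a phosphate, phosphofructokinase commits it to the pathway, and the lower steps yield ATP, NADH and pyruvate. Lactate dehydrogenase turns pyruvate into lactate, and the mitochondrial pyruvate carrier takes it to the mitochondria. Many steps have isozymes from separate genes that differ in regulation and tissue. When oxygen is low, the prolyl hydroxylases of the EGLN family stop marking HIF-1 alpha for destruction, and HIF raises many of these genes together with VEGFA, ADM, BNIP3 and EGLN3.

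Values per library summed to between 43478033 and 53301879. The first principal component of the tested genes held 59.7% of the variance and parted the genotype labels, and the second held 26.8% and parted replicate 1 of both labels from replicates 2 and 3. TNK2 was at 829.7, 612 and 642 in WT, then 741, 506 and 598 under the label ACK KO, a log2 difference of -0.18 (SE 0.21, adjusted p 0.681, limma). TNK2 mRNA therefore does not check the labels, and the libraries are called KO-labelled below. All 15 erythroid and K562 markers examined, GATA1, TAL1, the gamma globins, BCR and ABL1 among them, had values above 0 in every library, and 1 of them, the embryonic globin gene HBE1, passed the test below as higher under the KO label. Of markers of other cells, 2 of 4 tested epithelial and fibroblast genes (KRT8 and COL1A1) passed the test as higher in KO-labelled libraries, and none of 3 lymphoid and 2 myeloid genes tested did (limma, also none at an unadjusted p under 0.05). With replicate number as a block (limma), 3 erythroid and K562 markers were called higher (HBE1, BCR and ABL1) and 3 lower (GATA1, GFI1B and TFRC). In the same fit 3 epithelial and fibroblast genes were higher, and the myeloid gene ITGAM was 3.39-fold lower (limma adjusted p 0.00116). Of all tested genes, 5.37% were called higher and 4.96% lower without the block, and 19.7% and 20.0% with it. The summed level of the epithelial and fibroblast list was 14778 to 21227 in WT and 21871 to 30460.4 in KO-labelled libraries, and CDH1, COL3A1 and DCN were near or at 0 in every library. EPCAM, KRT8 and KRT18 held nearly all of that level in WT as well. The list's part in the differences below was not tested. In bulk RNA, fewer cells of a type and less RNA per cell cannot be told apart.

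In both genotype labels, replicate 1 had less glycolytic mRNA, as a share of all values, than replicates 2 and 3. The 17 member genes from hexokinase to lactate dehydrogenase together made up 0.471% of the summed values in WT replicate 1. Their share was 0.944% and 0.93% in WT replicates 2 and 3. In KO-labelled libraries the same share was 0.471% in replicate 1 and 0.81% and 0.738% in replicates 2 and 3. Replicate 1 thus held the lowest share under each label, and KO-labelled replicates 2 and 3 lay below WT replicates 2 and 3. Both contrasts are described below, genotype first.

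**Figure D1:**
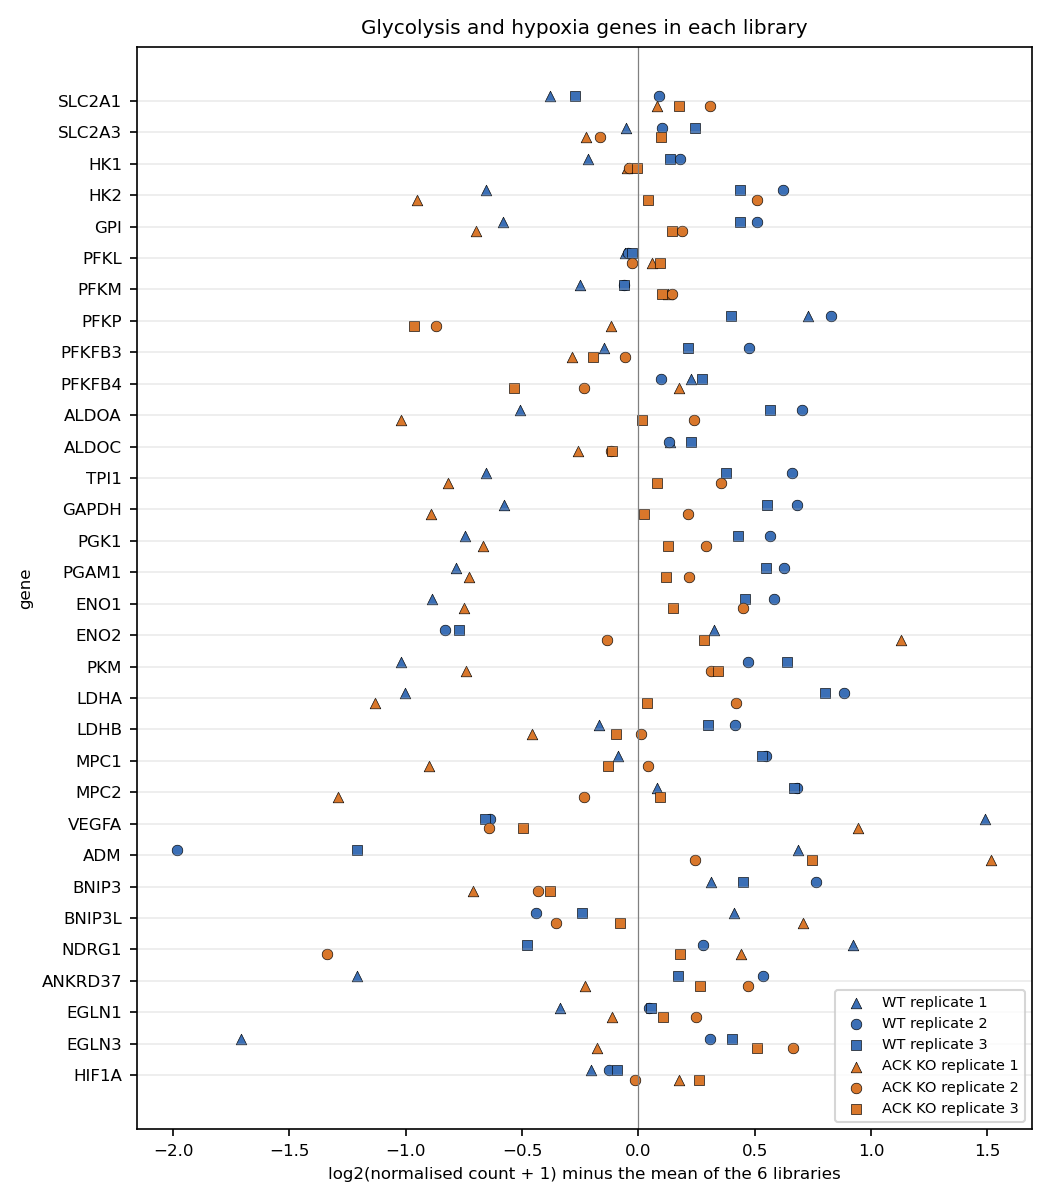
Each row is 1 of 32 genes and each point 1 library, placed by its log2(normalised count + 1) minus the mean of the 6 libraries; colour marks the genotype label and shape the replicate. Triangles, the replicate 1 libraries, lie to the left for most glycolytic enzymes and to the right for VEGFA and ENO2, while PFKP and BNIP3 part by colour.

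Between genotype labels, 2 of 32 members passed an adjusted p of 0.05 (limma on log2(value + 1), Benjamini-Hochberg over all tested genes), and both were lower in KO-labelled libraries: PFKP, the platelet-type phosphofructokinase gene, and BNIP3, which encodes a mitophagy receptor. Over all tested genes 10.3% passed, 5.37% as higher and 4.96% as lower, so the members' 2 of 32 is no larger a share than the background. Replicates of the same number deviated together, and with the replicate number as a block 19 members passed, 5 higher and 14 lower, where the background was 39.7% (19.7% higher and 20.0% lower). The median log2 difference of the 32 members was -0.22, with 10 above 0 and 22 below, beside -0.02 for all tested genes. It was -0.26 for the 23 genes of uptake, glycolysis, lactate and pyruvate transport and 0.18 for the 9 oxygen-response genes. When each library was scaled to the same sum, the median of all tested genes moved from -0.02 to 0.08 and the calls over all genes moved from 51.9% to 61.9% higher, while the same 2 members were called. None was called higher without the block, and at an unadjusted p under 0.05 there were 1 higher and 3 lower (limma).

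Agreement between same-numbered replicates was more common than a call, both among the members and over all tested genes. KO-labelled values lay below WT in each of the 3 pairs for 15 of 32 members (34.0% of all tested genes) and above in each for 9 (31.8%). All KO-labelled libraries lay below all WT libraries for 3 members, ALDOC, BNIP3 and PFKP (14.7% of tested genes), and above for HIF1A and PFKM (15.2%). Without both replicate 1 libraries 14 members passed, 2 higher (14.6% of tested genes) and 12 lower (13.8%). With the block as well 25 passed, 5 higher (22.7%) and 20 lower (24.7%), and 19 of the 20 lower ones were uptake, glycolysis, lactate and carrier genes. The members' share of lower calls was thus above the background in these fits, and their share of higher calls was not.

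**Figure D2:**
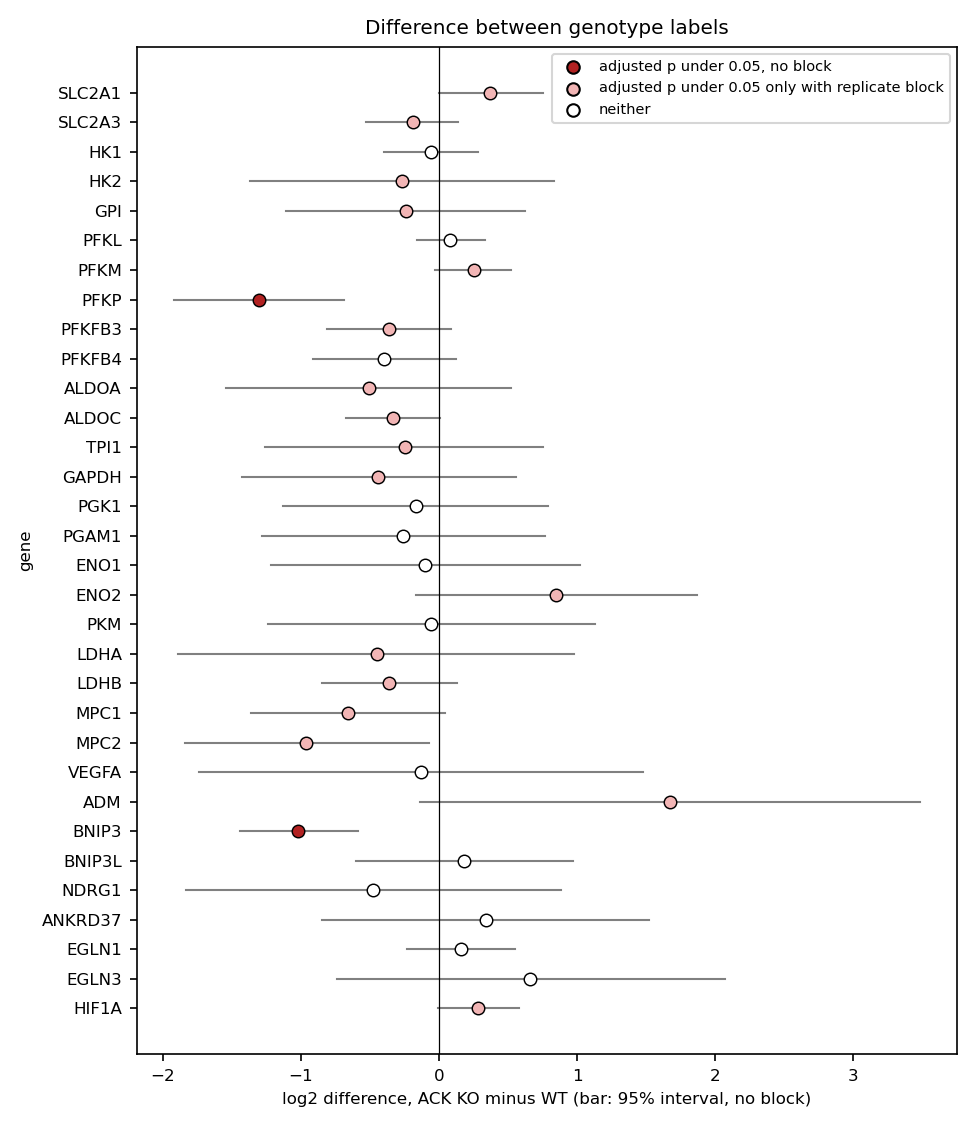
Points are log2 differences (ACK KO minus WT) of 32 genes on the log2(value + 1) scale, bars are 95% intervals of the test without a block, and fill marks which test each gene passed at an adjusted p of 0.05. PFKP at -1.30 and BNIP3 at -1.02 are filled dark, and the bar of ADM, at 1.67, is wide.

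HIF binds a core that reads ACGTG or GCGTG, and the 250 bases before each RefSeq start (GRCh38.p14) were searched for these letters on both strands. Of 33 members 29 had at least 1 such window, 53 windows in all. The letters ACGTG were in 35.8% of the members' windows and in 18.5% of all 35116 windows, and GCGTG in 30.2% and 32.2%. A CACGTG, which holds ACGTG on both strands and is also the E-box letters of MYC-type factors, was counted as 1 match. The windows of 4 genes follow, 5′ to 3′ in the direction of the gene, with matches in capitals: LDHA, the glycolytic member furthest below the others in replicate 1, the enolase pair that went opposite ways there, and BNIP3, which fell in KO-labelled libraries.
LDHA (chr11:18394313-18394562, plus strand): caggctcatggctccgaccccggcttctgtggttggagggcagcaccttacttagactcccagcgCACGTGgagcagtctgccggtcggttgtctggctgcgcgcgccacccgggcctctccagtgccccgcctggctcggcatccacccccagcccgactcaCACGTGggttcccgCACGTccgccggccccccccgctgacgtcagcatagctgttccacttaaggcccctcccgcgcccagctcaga
ENO1 (chr1:8878687-8878936, minus strand): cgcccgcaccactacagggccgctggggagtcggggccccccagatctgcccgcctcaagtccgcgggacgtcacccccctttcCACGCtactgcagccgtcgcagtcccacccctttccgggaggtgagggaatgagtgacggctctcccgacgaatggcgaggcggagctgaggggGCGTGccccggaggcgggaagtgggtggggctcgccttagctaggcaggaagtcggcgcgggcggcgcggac
ENO2 (chr12:6914330-6914579, plus strand): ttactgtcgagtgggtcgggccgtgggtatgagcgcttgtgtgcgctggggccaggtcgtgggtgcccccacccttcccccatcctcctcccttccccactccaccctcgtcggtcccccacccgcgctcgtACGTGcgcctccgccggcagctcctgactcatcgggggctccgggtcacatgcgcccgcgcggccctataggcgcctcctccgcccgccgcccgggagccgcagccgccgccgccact
BNIP3 (chr10:131981924-131982173, minus strand): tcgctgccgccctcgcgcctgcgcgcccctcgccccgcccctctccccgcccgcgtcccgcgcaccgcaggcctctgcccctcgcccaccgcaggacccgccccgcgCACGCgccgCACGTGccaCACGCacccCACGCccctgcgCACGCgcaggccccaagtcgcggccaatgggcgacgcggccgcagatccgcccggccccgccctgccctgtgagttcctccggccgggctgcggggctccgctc
This first of 2 LDHA windows held 3 ACGTG matches, 2 of them within a CACGTG, beginning 185, 87 and 73 bases before the start. ENO1 held 2 GCGTG matches and no ACGTG, ENO2 held 1 ACGTG, and BNIP3 held 1 ACGTG within a CACGTG and 4 GCGTG. The 4 PFKP windows held 1 ACGTG and 3 GCGTG in all. Of the glycolytic members lowest in both replicate 1 libraries, LDHA, HK2, GPI, TPI1, GAPDH, PGK1 and ALDOA held ACGTG in at least 1 window. ENO1 and HK1 held GCGTG only, and PKM, PGAM1 and LDHB held neither motif. Of the uptake, glycolysis and carrier members not lowest there, ALDOC, PFKM, PFKP and PFKFB3 held ACGTG in at least 1 window too. PFKL, PFKFB4 and MPC1 held GCGTG only, SLC2A1 and MPC2 held neither, and SLC2A3 had no window. ENO2, higher there, held ACGTG, and VEGFA, NDRG1 and BNIP3L, also higher, had no window. With ENO2 alone on the higher side, whether matches follow the direction in replicate 1 was not tested. A match is a description of the letters in these windows, and no binding was measured here.

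SLC2A1, which encodes the widely expressed transporter GLUT1, was at 3156, 4364 and 3402 in WT, then 4337, 5080.4 and 4636 under the KO label. The label difference on the log2 scale was 0.37 (SE 0.16, limma adjusted p 0.209, or 0.00719 with replicate number as block). SLC2A3, which encodes the high-affinity transporter GLUT3, was at 11509.6, 12829 and 14153 in WT, then 10221, 10669 and 12779 under the KO label, and its log2 difference was -0.19 (SE 0.14, limma adjusted p 0.482, or 0.0339 with replicate number as block). Each transporter had the same direction in all 3 same-numbered pairs, up for SLC2A1 and down for SLC2A3, and the ranges of the labels overlapped for both. Per kilobase of the principal transcript (GENCODE 29), SLC2A3 made up 77.4%, 73.4% and 79.6% of the pair in WT, then 68.8%, 66.3% and 72.1% under the KO label. These ranges did not overlap. The log2 ratio of SLC2A3 to SLC2A1 differed by -0.57 between labels (exact permutation p = 0.1, the smallest that 3 against 3 libraries can give, and 0.367 adjusted over 11 ratios). SLC2A3 has a closely similar neighbour, SLC2A14, and reads can be split between them, so its level is uncertain.

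Hexokinase, which phosphorylates glucose, came mostly from HK1. HK1, the housekeeping isozyme bound to mitochondria, was at 19233, 25321 and 24552 in WT, then 21647, 21727 and 22274 under the KO label, a log2 difference of -0.06 (SE 0.14) that turned to 0.04 with equal library sums. HK2, the inducible isozyme, was at 2941, 7144 and 6283 in WT, then 2396, 6598 and 4769 under the KO label. Its spread followed the replicate number more than the label, and its log2 difference was -0.27 (SE 0.46, limma adjusted p 0.789, or 0.0268 with replicate number as block). HK2 made up 8.72%, 15% and 13.8% of the pair per kilobase in WT, then 6.46%, 15.9% and 11.8% under the KO label, lowest in replicate 1 of each. GPI, the isomerase that follows, was at 8789, 18729 and 17837 in WT, then 8104, 14995 and 14560.1 under the KO label. GPI had a log2 difference of -0.24 (SE 0.36, limma adjusted p 0.756, or 0.0218 with replicate number as block).

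Phosphofructokinase, the committed step, works as a tetramer of L, M and P subunits, and PFKP was 1 of the 2 members called. PFKP was at 1741, 1865 and 1384 in WT, then 966, 574 and 537 under the KO label, so the 3 KO-labelled libraries all lay below the 3 WT libraries. Its means were 1663 ± 249.7 and 692 ± 238 (SD, n = 3 each), a fall of 2.47-fold with a log2 difference of -1.30 (SE 0.26, limma adjusted p 0.0234). PFKM, the muscle-type subunit gene, was at 2746, 3138 and 3139 in WT, then 3573, 3619 and 3508 under the KO label, all above WT, and its log2 difference was 0.25 (SE 0.12, limma adjusted p 0.254, or 0.0332 with replicate number as block). PFKL, the liver-type gene and the most abundant of the 3, was at 5553, 5606 and 5678 in WT, then 6019, 5673 and 6173 under the KO label. The ranges of PFKL overlapped, and its log2 difference of 0.08 had a 95% interval from -0.16 to 0.33. Per kilobase, PFKP held 19.2%, 19.5% and 15.1% of the 3 genes in WT, then 10.3%, 6.58% and 5.93% under the KO label. PFKM went from 26.8% ± 1.68 to 32.5% ± 1.5 and PFKL from 55.3% ± 1.64 to 59.9% ± 1.97 (SD, n = 3 each).

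The log2 ratio of PFKP to PFKL differed by -1.39 between labels and that of PFKM to PFKL by 0.16, neither with overlapping ranges (exact permutation p = 0.1 for each, 0.367 adjusted over 11 ratios). The fall of PFKP lost its call without WT replicate 2 (adjusted p 0.0903), WT replicate 3 (0.0628), KO-labelled replicate 2 (0.0893) or KO-labelled replicate 3 (0.0999), all by limma, with log2 differences from -1.57 to -1.15 over the 6 fits that left out 1 library. PFKP (GRCh38, chromosome 10, 3066333 to 3137712, plus strand) and PFKFB3 lie within 5 Mb of each other. The 38 tested genes within 5 Mb of PFKP had a median log2 difference of -0.37, against -0.10 for all tested genes of chromosome 10. The part of this local shift in the fall of PFKP was not tested.

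PFKFB enzymes make and remove a sugar bisphosphate that strongly activates phosphofructokinase. PFKFB3, the form with the highest kinase activity, was at 1078, 1661 and 1384 in WT, then 981, 1148 and 1045 under the KO label. On the log2 scale it differed by -0.36 (SE 0.19, limma adjusted p 0.319, or 0.0303 with replicate number as block), and the 32 tested genes within 5 Mb had a median of -0.38. PFKFB4 was at 631, 576 and 652 in WT, then 608, 458 and 372 under the KO label, a log2 difference of -0.40 (SE 0.22, limma adjusted p 0.332). KO-labelled values of both genes were the lower in every same-numbered pair, and their ratio differed by -0.04 (exact permutation p = 1). PFKFB2, from the list of other glycolysis genes, went the other way. It was at 1853, 1338 and 1491 in WT, then 3170.1, 2492 and 2709.6 under the KO label, a rise of 1.79-fold with a limma adjusted p of 0.0252, and its KO-labelled values all lay above WT.

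Aldolase mRNA was nearly all ALDOA, the muscle-type and most widespread isozyme, at 20890.1, 48411 and 44012 in WT, then 14657, 35092 and 29980.5 under the KO label. ALDOA differed by -0.51 (SE 0.43, limma adjusted p 0.551, or 5.26e-04 with replicate number as block), with the KO-labelled library lower by 0.46 to 0.55 in each same-numbered pair. ALDOC, the brain-type isozyme, was at 688, 686 and 734 in WT, then 523, 577 and 579 under the KO label, and all KO-labelled values lay below WT. The log2 difference was -0.33 (SE 0.14, limma adjusted p 0.23, or 0.041 with replicate number as block). Per kilobase ALDOC held 2.6%, 1.13% and 1.33% of the pair in WT, then 2.81%, 1.31% and 1.54% under the KO label, highest in replicate 1 of each label, where ALDOA was low.

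The enzymes of the lower pathway were among the most abundant members. By the WT mean per kilobase of transcript, GAPDH, ENO1, LDHB, ALDOA and LDHA were the 5 highest of the 32 members with either length measure. Their order differed between the WT libraries, and per kilobase of principal transcript VEGFA stood above ENO1, ALDOA and LDHA in WT replicate 1. The place of VEGFA depended on the length used: in the WT mean it ranked 7 by principal transcript and 19 by merged exon length. GAPDH, the dehydrogenase often used as a reference gene, was at 43156, 103091 and 94275 in WT, then 34669.9, 74533 and 65475 under the KO label. Its log2 difference was -0.44 (SE 0.42, limma adjusted p 0.604, or 0.00196 with replicate number as block), and WT replicates 2 and 3 were the highest libraries. TPI1, the triose isomerase gene, was at 8674, 21640.3 and 17743 in WT, then 7760.0, 17490.3 and 14468 under the KO label, with a log2 difference of -0.25 (SE 0.42, limma adjusted p 0.783, or 0.0141 with replicate number as block).

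PGK1, a kinase gene of the ATP-forming steps, was at 8773, 21768 and 19759.7 in WT, then 9234, 17940.4 and 16062 under the KO label, and PGAM1, the mutase gene, at 4548, 12076 and 11433 in WT, then 4731, 9114 and 8497 under the KO label. Both were lower in KO-labelled replicates 2 and 3 but not in replicate 1, and their log2 differences were -0.17 (SE 0.40) and -0.26 (SE 0.43). Over all 6 libraries neither passed without the block or with it (blocked adjusted p 0.155 and 0.0827, limma). Without both replicate 1 libraries PGAM1 passed and PGK1 did not (adjusted p 0.0111 and 0.0659, limma). With the block as well both passed. PKM, a pyruvate kinase gene, was at 7332, 20591 and 23137 in WT, then 8889, 18487 and 18855 under the KO label. Its log2 difference of -0.06 (SE 0.50) turned to 0.04 with equal library sums, and the 86 tested genes within 5 Mb of it had a median of 0.42. PKLR, the liver and red cell pyruvate kinase gene, was also abundant, at 10629, 15526 and 10546 in WT, then 7909, 5880.1 and 5508 under the KO label. It fell 1.89-fold (limma adjusted p 0.0397), with no overlap between labels. GAPDH, PGK1, PGAM1, TPI1, ENO1, PKM, LDHA and LDHB have processed pseudogenes with near-identical sequence, and BNIP3 has one too, so reads may be split and their levels are uncertain.

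Enolase forms phosphoenolpyruvate. ENO1, the ubiquitous alpha form, was at 34448, 95545 and 87748 in WT, then 37903, 87096 and 70782 under the KO label, a log2 difference of -0.10 (SE 0.47). ENO2, the neuronal gamma form, was at 652, 292 and 304 in WT, then 1138, 474 and 632 under the KO label. The KO-labelled library was the higher for ENO2 in every same-numbered pair, by 0.80, 0.70 and 1.05 on the log2 scale, though the ranges of the labels overlapped. ENO2 differed by 0.85 (SE 0.43, limma adjusted p 0.295, or 0.00178 with replicate number as block), and by 0.88 without both replicate 1 libraries (limma adjusted p 0.0118). ENO2 held 1.54%, 0.253% and 0.287% of the pair per kilobase in WT, then 2.43%, 0.449% and 0.735% under the KO label (exact permutation p = 0.5 for the log2 ratio, unpaired). Within the same-numbered pairs the log2 ratio was higher under the KO label by 0.67, 0.83 and 1.36.

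Lactate dehydrogenase forms tetramers of A subunits, which favour lactate formation, and B subunits, which favour pyruvate. LDHA was at 19346, 71603 and 67627 in WT, then 17696, 51889 and 39786 under the KO label, and LDHB at 30499, 45805 and 42170.5 in WT, then 24981, 34582 and 32104 under the KO label. The log2 difference of LDHA was -0.45 (SE 0.60, limma adjusted p 0.723, or 0.0171 with replicate number as block). That of LDHB was -0.36 (SE 0.21, limma adjusted p 0.357, or 0.00264 with replicate number as block). Both were lower in each KO-labelled library than in the WT library of its number. LDHB held 71.2%, 50.1% and 49.5% of the pair per kilobase in WT, then 68.9%, 51.1% and 55.9% under the KO label and was highest in replicate 1 of each (log2 ratio difference 0.09, exact permutation p = 0.8).

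The mitochondrial pyruvate carrier is a heterodimer of MPC1 and MPC2. MPC1 was at 1812, 2819 and 2787 in WT, then 1034, 1982 and 1760.4 under the KO label, and MPC2 at 2484, 3774 and 3738 in WT, then 959, 1998 and 2507 under the KO label. Both were lower in every KO-labelled library than in the WT library of the same number, with a slight overlap between labels for each. The log2 difference of MPC1 was -0.66 (SE 0.29, limma adjusted p 0.237, or 0.00119 with replicate number as block), and that of MPC2 was -0.96 (SE 0.37, limma adjusted p 0.176, or 0.0021 with replicate number as block). Without both replicate 1 libraries they were -0.59 and -0.75 (adjusted p 0.00519 and 0.00442, limma). The 36 tested genes within 5 Mb of MPC1 had a median log2 difference of -0.27.

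**Figure D3:**
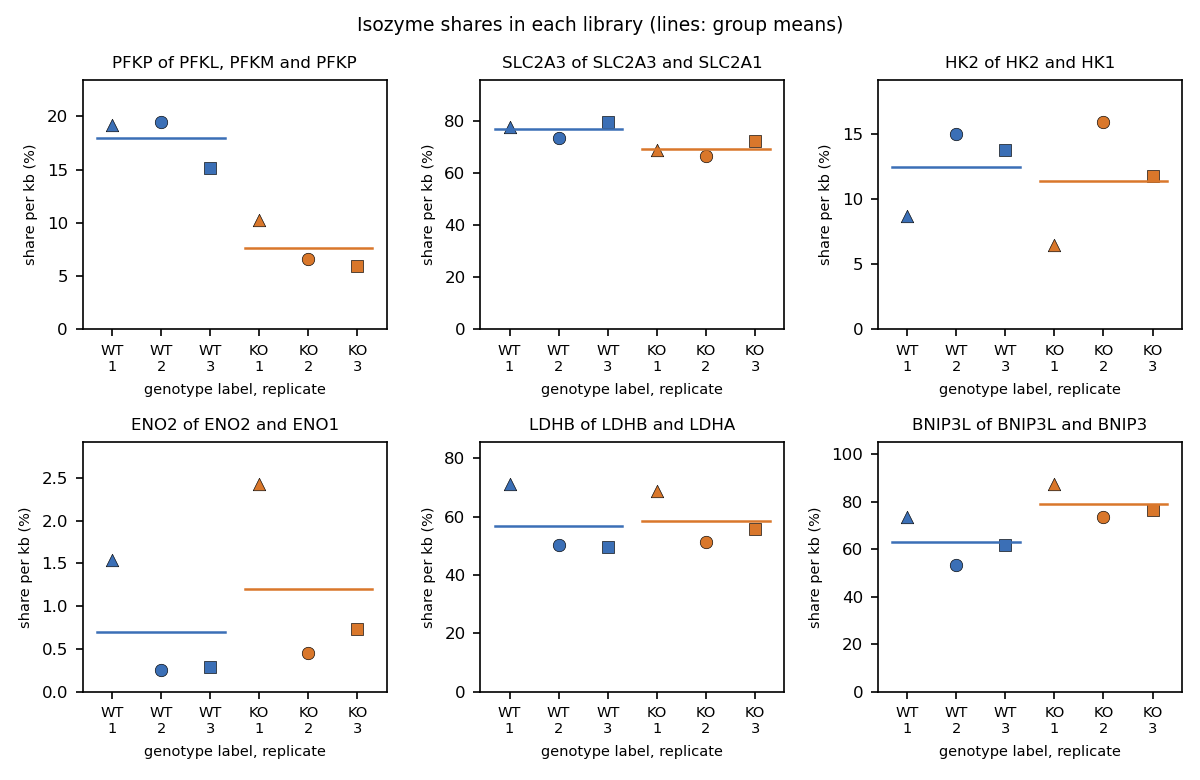
Each panel gives, for each library, the percentage that 1 gene contributes to its isozyme group, from normalised counts per kilobase of principal transcript; lines are group means, and each vertical axis starts at 0 with its own scale. The PFKP share is lower in all KO-labelled libraries, and the ENO2 and LDHB shares are highest in replicate 1 of both labels.

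BNIP3 was the 1 of 9 oxygen-response members that passed the test without the block. It was at 1253, 1711 and 1377 in WT, then 615, 748 and 775 under the KO label, with every KO-labelled library below every WT library. Its means were 1447 ± 237 and 713 ± 85.6 (SD, n = 3 each), a 2.02-fold fall with a log2 difference of -1.02 (SE 0.18, limma adjusted p 0.0152). The call was lost without WT replicate 2 (adjusted p 0.0617), WT replicate 3 (0.0692), KO-labelled replicate 2 (0.0544) or KO-labelled replicate 3 (0.0586), and the log2 difference stayed between -1.11 and -0.89 (limma). On chromosome 10 BNIP3 spans 131966455 to 131982013 (GRCh38, minus strand), and its promoter window is printed with the sequences above. There, 23 tested neighbours within 5 Mb had a median log2 difference of -0.06. BNIP3L, the related receptor that clears mitochondria from maturing red cells, was at 4448, 2463 and 2828 in WT, then 5457, 2614 and 3169 under the KO label, a log2 difference of 0.18 (SE 0.33). The BNIP3L share of the pair per kilobase was 63% ± 10.3 for WT and 79.2% ± 7.42 for the KO label (SD, n = 3 each), and the log2 ratio was higher in every same-numbered pair, by 1.32, 1.28 and 0.99 (exact permutation p = 0.2).

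The sensor and regulator genes were HIF1A, EGLN1 and EGLN3. HIF1A, which encodes the oxygen-regulated subunit of HIF-1, was at 2672, 2823 and 2886 in WT, then 3477, 3048 and 3693 under the KO label, all above WT. HIF1A differed by 0.28 (SE 0.12, limma adjusted p 0.231, or 0.0282 with replicate number as block). EGLN1, the main prolyl hydroxylase gene, was at 2134, 2779 and 2799 in WT, then 2489, 3197 and 2904 under the KO label, a log2 difference of 0.16 (SE 0.17, limma adjusted p 0.638). EGLN3, a hydroxylase gene that HIF itself induces, was at 78.3, 319.7 and 342 in WT, then 228, 410.0 and 368 under the KO label. WT replicate 1 was the lowest library by far, and the gene had a log2 difference of 0.66 (SE 0.59), which was -0.02 without that library.

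The secreted and stress-linked targets did not pass the test without the block. VEGFA, the vascular growth factor gene, was at 18277, 4182 and 4116 in WT, then 12515, 4159 and 4605 under the KO label, a log2 difference of -0.13 (SE 0.68) that was 0.08 without both replicate 1 libraries. ADM, the adrenomedullin gene, had the lowest values of the 32 members, at 11.2, 0.914 and 2.27 in WT, then 20.6, 7.95 and 11.7 under the KO label. Its log2 difference of 1.67 (SE 0.76) had an adjusted p of 0.244, of 0.0319 with the block and of 0.0477 without WT replicate 1 (limma). At these low values the size depended on the settings: it was 1.00 with a pseudocount of 5 and 2.43 without WT replicate 1, and it was lowest of the fits without 1 library when WT replicate 2 was left out. NDRG1, a differentiation-linked gene, was at 175, 112 and 65.8 in WT, then 126, 35.9 and 104 under the KO label, and ANKRD37 at 26.4, 91.1 and 70.6 in WT, then 53.1, 87.1 and 75.3 under the KO label. Both were low and spread widely within each label, and neither passed with or without the block (adjusted p 0.688 and 0.754 without it, limma).

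Replicate 1 against replicates 2 and 3 was described without a test, because replicate 1 had been seen to stand apart in these data. Both replicate 1 libraries lay below the other 4 for 15 of 32 members, beside 23.3% of all tested genes, and above them for 4, beside 20.0%. With equal library sums the members' counts were 13 and 5, beside 16.9% and 26.6%. Lower values by at least 2-fold under each label as well were found for 7 members (LDHA, PKM, ENO1, HK2, TPI1, GAPDH and ALDOA), beside 2.21% of tested genes. Higher values by at least 2-fold under each label were found for 3 members (VEGFA, ENO2 and NDRG1), beside 5.16%. Both of these 2-fold shares of the members were above the background, and the excess was larger on the lower side. The median log2 difference of replicate 1 was -0.74 over the 23 uptake, glycolysis, lactate and carrier genes, -0.02 over the 9 oxygen-response genes and 0.03 over all tested genes.

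LDHA had the largest deficit of the glycolytic members in replicate 1, 3.6-fold in WT and 2.57-fold in KO-labelled libraries on the log2(value + 1) scale. PKM was 2.98-fold and 2.1-fold lower, ENO1 2.66-fold and 2.07-fold, and GAPDH 2.28-fold and 2.02-fold. PGAM1, PGK1 and GPI were lower than in the other 4 libraries too, by log2 differences of -1.37, -1.24 and -1.06 for WT, then -0.90, -0.88 and -0.87 for the KO label. The deficit was not shared by all steps. PFKL had log2 differences of -0.02 and 0.02, PFKM of -0.19 and 0.00, and SLC2A3 of -0.23 and -0.19 under WT and KO labels. PKLR, a pyruvate kinase gene outside the members, had differences of -0.27 and 0.47, against -1.57 and -1.07 for PKM. Within isozyme pairs the inducible HK2 was lower by more than HK1 (-1.19 and -1.23 against -0.37 and -0.02), LDHA more than LDHB (-1.85 and -1.36 against -0.53 and -0.42), and ALDOA more than ALDOC (-1.14 and -1.15 against -0.04 and -0.14).

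ENO2 was opposite to ENO1 in replicate 1, 2.18-fold higher in WT and 2.08-fold higher in KO-labelled libraries. VEGFA was 4.4-fold and 2.86-fold higher there, NDRG1 2.03-fold under each label, and BNIP3L 1.69-fold and 1.9-fold. EGLN3 and ANKRD37 were lower instead, with log2 differences of -2.06 and -0.76 and of -1.57 and -0.60 for WT and KO labels. HIF1A had differences of -0.10 and 0.05. The oxygen-response members therefore did not go one way in replicate 1.

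**Figure D4:**
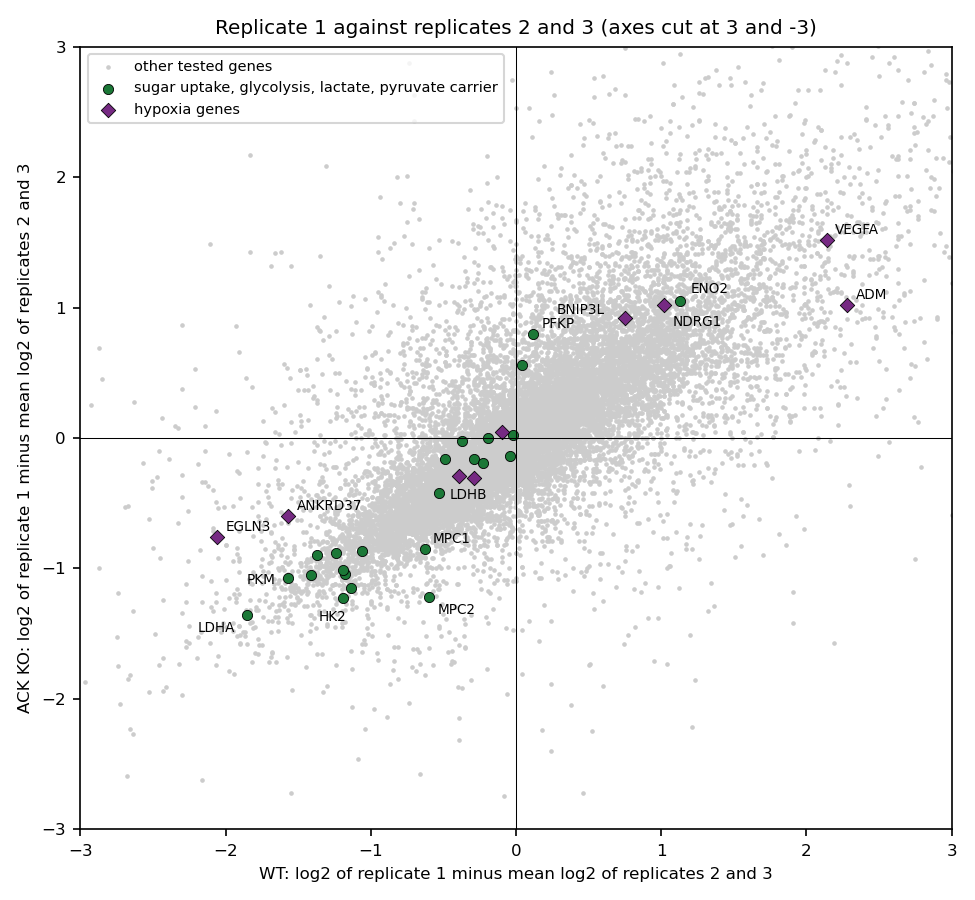
The horizontal axis is the log2 value of WT replicate 1 minus the mean log2 of WT replicates 2 and 3, and the vertical axis the same for KO-labelled libraries; grey points are all other tested genes within the axes, green circles the uptake, glycolysis, lactate and carrier genes, and purple diamonds the oxygen-response genes. Most glycolytic genes lie in the lower left, with LDHA at -1.85 and -1.36, but ENO2 at 1.13 and 1.05 and PFKP at 0.12 and 0.80 do not, and VEGFA at 2.14 and 1.52 lies in the upper right.

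Genes of other lists are given beside these values, where 20.0% of all tested genes had both replicate 1 libraries above the other 4 and 23.3% below. Of 5 genes of serine synthesis, a branch that leaves glycolysis at the level of phosphoglycerate, 3 were above the other 4 libraries in both replicate 1 libraries. PHGDH, its first enzyme, was at 14592, 2396 and 3016 in WT, then 12019, 4045 and 5333 under the KO label. In the list of heat shock and acute stress genes, 3 of 8 were above (DDIT3, ATF3 and JUN) and 1 below (HSPH1). ATF3, a stress-induced transcription factor gene, was at 912, 212 and 263 in WT, then 1428, 288 and 412 under the KO label. HSPA1A, a heat shock gene, was at 47163, 14644 and 11551 in WT, then 6279, 12900.0 and 9489 under the KO label, so it was high in WT replicate 1 and in no other library. The gamma globin gene HBG1, an erythroid marker, was at 5956, 18026 and 14541 in WT, then 6944, 17266 and 16795 under the KO label, with both replicate 1 libraries lowest, while of the 15 erythroid and K562 markers 4 were below and 2 above, near those shares. ITGAM, a myeloid integrin gene, was at 3712, 1352 and 1088 in WT, then 1690.1, 426 and 194 under the KO label, with both replicate 1 libraries above the other 4. CD3D, a T cell receptor complex gene, was at 399.6, 1121 and 1679 in WT, then 909, 1107 and 1708 under the KO label, with both below. The part of stress, erythroid state or these other-cell markers in the replicate 1 values of the members was not tested.

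Other genes of the pathway came from further lists. Their counts stand beside all tested genes, of which 5.37% were called higher and 4.96% lower, or 19.7% and 20.0% with the block. Among 14 other glycolysis genes tested 2 were called higher (PFKFB2 and SLC2A6) and 1 lower (PKLR), and 5 higher and 2 lower with the block. SLC2A6, a lysosomal hexose transporter gene at low level, was at 7.76, 17.4 and 18.9 in WT, then 49, 69.2 and 73.4 under the KO label, a log2 difference of 2.12 (SE 0.42, adjusted p 0.0243, limma). None of 8 pentose phosphate, 5 serine synthesis and 13 HIF pathway genes passed without the block, and 1, 0 and 0 of them had an unadjusted p under 0.05 (limma). With it, 1 was higher and 4 lower, 1 and 1, and 1 and 2 in these lists. EPAS1, which encodes HIF-2 alpha, was at 1656, 719.9 and 799.9 in WT, then 2857, 1113 and 868 under the KO label, highest in replicate 1 of each label.

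Of 40 other hypoxia target genes tested, 3 were called higher and 1 lower (7 and 7 with the block), in all no larger shares than the 10.3% and 39.7% of all tested genes. AK4, a mitochondrial adenylate kinase gene, was at 1162, 1554 and 1415 in WT, then 2706, 3590.1 and 3494 under the KO label, a 2.36-fold rise (adjusted p 0.00678, limma). The 33 tested genes within 5 Mb of AK4 had a median log2 difference of 0.48. P4HA1, a collagen prolyl hydroxylase gene, was at 2092, 1896 and 1940.1 in WT, then 3185, 3049 and 3122 under the KO label, and PLOD2, a collagen lysyl hydroxylase gene, at 3994, 3846 and 3838 in WT, then 6413, 6080.4 and 5755 under the KO label. Both rose, 1.58-fold and 1.56-fold (adjusted p 0.0136 and 0.0129, limma), with no overlap between labels. CXCR4, a chemokine receptor gene, was at 38.5, 22.5 and 25.9 in WT, then 6.49, 10.1 and 7.88 under the KO label, a 3.23-fold fall (limma adjusted p 0.036). PDK1, the pyruvate dehydrogenase kinase gene that HIF induces, was at 1382, 769.6 and 1030.0 in WT, then 1250.4, 756 and 976 under the KO label, high in replicate 1 of both labels.

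Of the 7 genes called in these further lists, AK4 kept its call in each fit without 1 library. SLC2A6, P4HA1 and PLOD2 lost it without WT replicate 2, WT replicate 3, KO-labelled replicate 2 or KO-labelled replicate 3, with adjusted p from 0.058 to 0.115 (limma). PKLR lost it without the same 4 libraries (0.0953 to 0.158), PFKFB2 without these or KO-labelled replicate 1 (0.0603 to 0.113) and CXCR4 without any 1 of the 6 (0.0713 to 0.132). With equal library sums PKLR and CXCR4 had adjusted p of 0.0618 and 0.0517, and CXCR4 had 0.0605 without both replicate 1 libraries (limma).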

How the data were processed

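RNA of 6 K562 libraries was sequenced from a stranded poly(A) kit, with 3 biological replicates per genotype label. The authors deposited 1 table of normalised counts per gene and library, a signal whose values are not whole reads. The submitters' processing notes name STAR 2.7.2b, Salmon 1.1.0, DESeq2 1.26.0, R 3.6.1 and the build GRCh38. Their settings and the annotation release were not given in those notes. Depth in reads is therefore unknown. Symbols came from the reference name table, and 19392 of 19498 identifiers had one. Positions and transcript lengths came from GENCODE 29, which held 19112 of the identifiers.

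Log2(value + 1) was tested with limma 3.58.1 (R 4.3.3) with an intensity trend, over genes with at least 10 in at least 3 libraries, with Benjamini-Hochberg adjustment over 16658 genes. The fit was tested on simulated data. Same-numbered libraries had correlated deviations from their group means (0.699, 0.521 and 0.342), so the replicate number, which comes from the sample titles, was also used as a block. Ratios of isozymes were tested by exact two-sided permutation, with Benjamini-Hochberg adjustment over the ratios by scipy 1.17.1. The alternatives were the block, pseudocounts of 5 and 0.5, no filter, equal library sums, no trend, each library left out, both replicate 1 libraries left out, and merged exon length for levels per kilobase.

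Members and lists were chosen with earlier results of these data known. The genes named were all members and, from the 5 pathway lists, each gene that passed. PHGDH, ATF3, HSPA1A, HBG1, EPAS1, PDK1 and the marker genes were named after their values were seen.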

Additional observations from a re-analysis of the deposited data

How the results depend on the processing

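A block on replicate number let 6612 genes pass in place of 1721, and 19 members in place of 2. Without both replicate 1 libraries 4731 genes and 14 members passed, and with both changes, a choice made after seeing the data, 7906 and 25. Without single libraries the counts ran from 726 to 2183 genes and from 0 to 3 members, 0 by limma without WT replicate 2 or 3 or KO-labelled replicate 2 or 3. In those 4 fits 2 to 5 members had an unadjusted p under 0.05. Other pseudocounts, no low-value filter and no intensity trend kept both counts within 1.5 times, though the log2 difference of ADM was 1.00 with a pseudocount of 5 in place of 1.67. Signs of members not called in the fit without a block turned in some settings: with equal library sums for HK1 (0.04) and PKM (0.04), without both replicate 1 libraries for VEGFA (0.08, and 0.08 with the block), and without single libraries for HK1 (-0.19 to 0.01), HK2 (-0.67 to 0.14), GPI (-0.60 to 0.05), TPI1 (-0.65 to 0.09), PGK1 (-0.58 to 0.12), PGAM1 (-0.72 to 0.04), ENO1 (-0.57 to 0.25), PKM (-0.58 to 0.30), LDHA (-1.07 to 0.00), VEGFA (-0.64 to 0.58), BNIP3L (-0.13 to 0.43), NDRG1 (-0.84 to 0.07), ANKRD37 (-0.19 to 0.69) and EGLN3 (-0.02 to 1.03). Isozyme log2 ratio differences that turned without single libraries were HK2 over HK1 (-0.53 to 0.20), PFKFB4 over PFKFB3 (-0.28 to 0.14), ALDOC over ALDOA (-0.15 to 0.55), LDHB over LDHA (-0.22 to 0.53) and EGLN3 over EGLN1 (-0.05 to 0.81). The causes were not tested. The paired value of each ratio, from same-numbered replicates, equals the unpaired one, since each label has all 3 numbers. Depth is unknown, so limits from counting cannot be given.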

Other observations

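Among the 40 other hypoxia target genes tested, 13 had both replicate 1 libraries above the other 4 and 7 had both below, beside 20.0% and 23.3% of all tested genes. DDIT4, an inhibitor of mTORC1 that low oxygen and other stresses induce, was at 12345, 2733 and 4003 in WT, then 13869, 3687 and 4859 under the KO label. STC2, which encodes a secreted glycoprotein, was at 2530.3, 496 and 696 in WT, then 1202, 524 and 439 under the KO label, and CA12, a membrane carbonic anhydrase gene, at 474, 284 and 238 in WT, then 340.3, 80.6 and 111 under the KO label. In each of the 3 genes both replicate 1 libraries lay above the other 4, by the widest margin for DDIT4. The 3 were picked with their values in view.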
